A study of Drosophila melanogaster with 17 samples.

Results

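The transcription factors described here mark the fat body and the regions of the fly gut. They are the GATA factors srp and GATAe, the midgut region factors lab, Ptx1, dve and cad, and the hindgut factor byn. The 7 genes were taken by symbol from the deposited gene counts, and all 7 were found among 14095 gene loci. RNA sequencing had been done on fat bodies, midguts and whole guts dissected from adult Drosophila melanogaster, in 17 libraries and 8 groups. Young flies were 5 days old (2 libraries each of fat body, midgut and whole gut), and old flies were 50 days old for fat body (3 libraries) and midgut (2 libraries) but 40 days old for whole gut (2 libraries). These untreated groups aged naturally, and the study text calls the young flies wild type. The Lam-RNAi flies were 5 days old (2 libraries each of fat body and midgut) and carried an RNA interference treatment against Lam, which encodes the fly B-type lamin of the nuclear envelope. The labels give neither the tissue nor the driver in which the RNAi acted, nor sex or strain, and the young untreated groups are the only controls for both the old and the Lam-RNAi groups.

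GATA factors bind a short DNA motif shared by the family, and srp, a GATA factor of the embryo, is required for endoderm, fat body and blood cells. GATAe acts after srp in the endoderm and stays on in the adult midgut, where it maintains genes of midgut cells. Within the gut tube, homeobox factors distinguish regions: lab (a Hox factor) specifies the acid-secreting copper cells of the middle midgut, dve acts in the same middle region, Ptx1 (a Pitx-family factor) is expressed in midgut regions, and cad (caudal) belongs to the posterior. The T-box factor byn, the fly Brachyury homologue, specifies the hindgut.

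The files held between 31637135 and 78289614 counts per library, with 10383 to 12670 loci detected. Levels are given as CPM, a gene's count scaled to the library's total, and a locus with no count could still hold up to 3 counts, 0.0383 to 0.0948 CPM depending on the library; such limits cover counting error only. Old fat body library 3 stood between libraries 1 and 2 across genes, and its counts were approximated by 0.445 times library 1 plus 0.654 times library 2. The mean squared standardised residual of that sum over 10855 genes was 5.6, whereas the mean chi-square per gene between the replicate pairs of the other groups ran from 7.73 to 54. The calls of members in old fat body are therefore also given without library 3. The targeted gene Lam measured 38.4 and 39.0 CPM in young fat body and 15.5 and 16.1 CPM in Lam-RNAi fat body, a fall by 1.12 on the log2 scale (adjusted p = 0.00145, edgeR). In midgut it measured 28.9 and 32.1 CPM in young flies and 32.0 and 30.4 CPM in Lam-RNAi flies, and the difference did not pass (log2 change -0.11, adjusted p = 0.173).

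**Figure D1:**
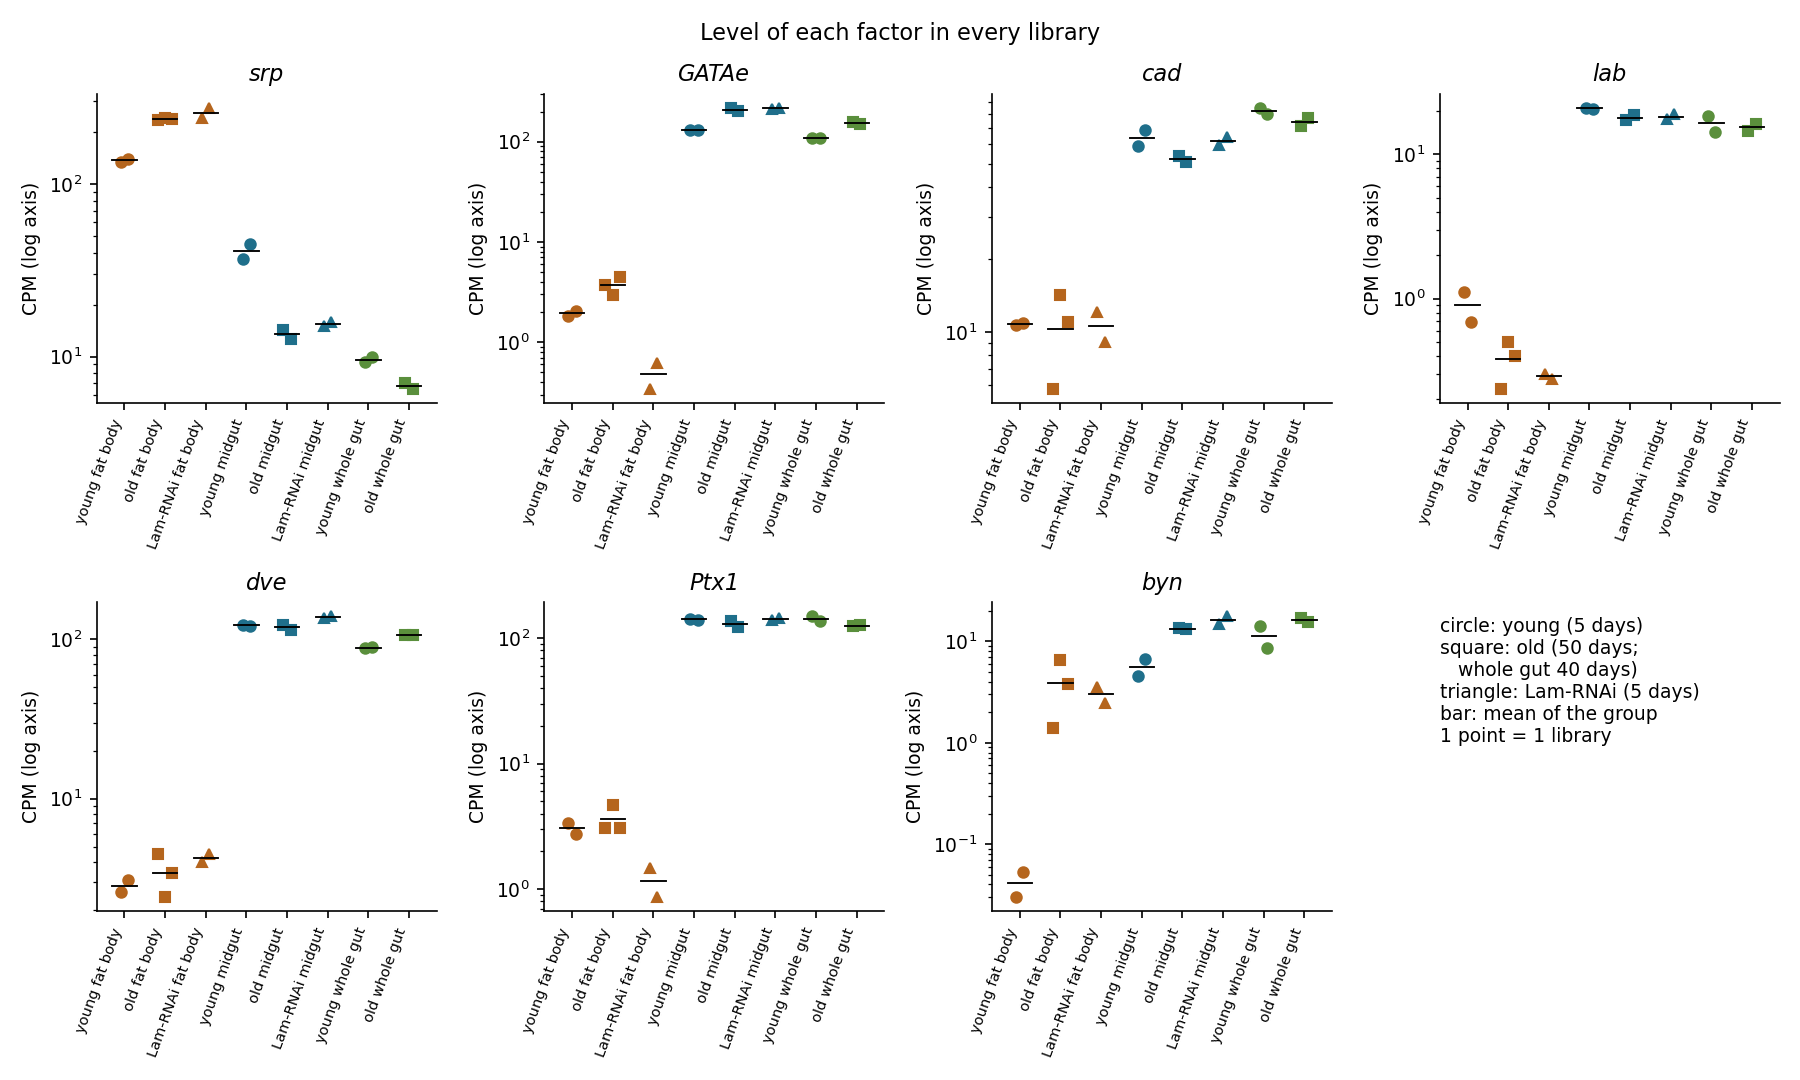
Level of each factor in every library, in CPM on a log axis, by group; bars mark group means. The highest srp points lie in fat body and those of GATAe, lab, dve, Ptx1 and cad in midgut or whole gut, and byn is near 0.04 CPM in young fat body alone.

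srp lies on chromosome 3R at 11811922 to 11829807 of the deposited annotation, on the plus strand, whose build is not given in the sources used here. GATAe follows on the same strand at 11834826 to 11844855, 5018 bases further on, with 1 other annotated locus between them. lab is on 3R at 2487139 to 2504312 on the minus strand, and Ptx1 on 3R at 26738609 to 26756404 on the plus strand. cad is on 2L at 20770734 to 20783142, dve on 2R at 18131467 to 18173982 and byn on 3L at 11924480 to 11928831, all on the plus strand. None of these loci overlaps another annotated entry.

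In young flies srp was the fat body factor of the set and the others were gut factors. srp measured 134 and 140 CPM in young fat body, 36.7 and 44.8 CPM in young midgut, and 9.25 and 9.99 CPM in young whole gut. The 3 tissues did not overlap, with fat body highest and whole gut lowest. GATAe measured 1.83 and 2.04 CPM in young fat body, 132 and 131 CPM in young midgut, and 108 and 110 CPM in young whole gut, so that its order over fat body and midgut was the opposite of that of srp.

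The region factors shared the low fat body level of GATAe to different degrees. Ptx1 measured 3.39 and 2.75 CPM in young fat body against 142 and 141 CPM in young midgut. dve measured 2.61 and 3.07 CPM in young fat body against 123 and 121 CPM in young midgut. lab, whose copper cell region is a small part of the midgut, measured 1.11 and 0.692 CPM against 21.1 and 20.6 CPM. In each of these 3 genes every gut library lay far above every fat body library. cad differed least, with 10.7 and 10.8 CPM in young fat body, 59.0 and 68.8 CPM in young midgut and 85.4 and 80.1 CPM in young whole gut. byn was close to absent from young fat body, with 1 read and 3 reads in the 2 libraries, and measured 4.57 and 6.65 CPM in young midgut and 14.1 and 8.69 CPM in young whole gut. Its pooled rate was 127-fold higher in young midgut than in young fat body, with a 95% exact counting interval from 49.1 to 467.

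Per kilobase of annotated exon, which allows genes to be set against each other, the young midgut level was 39.6 CPM for Ptx1, 37.7 for GATAe, 24.9 for cad and 24.7 for dve. On the same scale it was 6.99 for srp, 6.85 for lab and 2.12 for byn. In young fat body srp stood at 23.5 CPM per kilobase and the next factor, cad, at 4.18. The exon lengths came from a later annotation than the counts, so these levels are approximate.

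All 7 factors differed between young fat body and young midgut, where 69.3% of all genes tested were called at an adjusted p below 0.05 (edgeR quasi-likelihood test, Benjamini-Hochberg adjustment). On the log2 scale fat body minus midgut was 1.30 for srp (SE 0.09, adjusted p = 1.7e-08), -6.54 for GATAe (SE 0.18, adjusted p = 4.41e-12) and -3.03 for cad (SE 0.31, adjusted p = 1.91e-06). It was -6.00 for Ptx1, -5.87 for dve and -5.05 for lab. The same 7 calls with the same signs were made in old flies, where 73.7% of genes were called, also without old fat body library 3, and in Lam-RNAi flies, where 73% were called. The srp difference was 3.61 in old flies and 3.87 in Lam-RNAi flies, and the GATAe difference was -6.34 and -8.95. In old flies the lab difference was -6.11 and the Ptx1 difference -5.71. In bulk tissue, fewer cells of a type and less RNA per cell cannot be told apart.

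**Figure D2:**
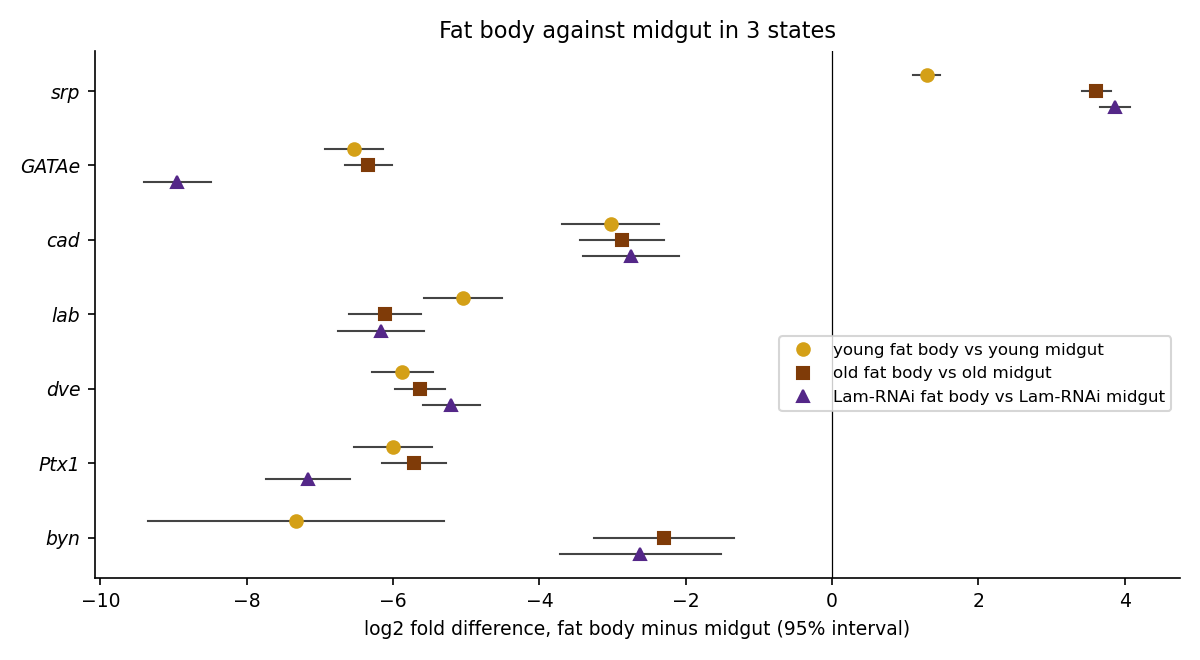
Log2 difference between fat body and midgut for each factor in young, old and Lam-RNAi flies, with 95% intervals. srp lies right of 0 in each state, at 1.30, 3.61 and 3.87, and the other 6 factors lie left of it.

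Between whole gut and midgut of young flies 1 of the 7 factors was called. srp was lower in whole gut by 1.82 on the log2 scale (SE 0.09, adjusted p = 7.59e-09), and 42.2% of all genes were called. The interval of the difference ran from -0.31 to 0.28 for GATAe, -0.53 to 0.12 for dve and -0.50 to 0.32 for lab. It ran from 0.22 to 2.37 for byn and from 0.03 to 1.25 for cad, neither of which passed the adjustment (adjusted p = 0.0531 and 0.0884). With only these 2 groups in the fit, 4 of the 7 were called, where 4642 of 9885 genes were called. The whole gut also holds Malpighian tubule, whose 8 markers summed to 2068 and 2115 CPM there and to 260 and 313 CPM in young midgut. Of 9 hemocyte markers 5 were lower and 1 higher in whole gut, with sums of 180 and 186 CPM against 319 and 382 CPM in midgut. Of 3 oenocyte markers 2 were lower, with sums of 319.9 and 326 CPM against 2117 and 2772 CPM. All 4 ovary markers tested were lower, with sums of 0.237 and 0.506 CPM against 7.58 and 7.95 CPM. Of 6 fat body markers 1 was higher and 1 lower, and of 5 muscle markers 1 was lower. Their part in the srp difference was not tested.

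With age, fat body gained srp and byn. srp measured 233, 240 and 236 CPM in old fat body, above both young libraries, a rise of 0.70 on the log2 scale (SE 0.09, adjusted p = 0.00157). Without old library 3 the rise was 0.71 (adjusted p = 0.0113). byn measured 1.40, 6.59 and 3.78 CPM, from 65, 249 and 171 reads, against 1 and 3 reads in young fat body. The lowest old library was far above the highest young one, and the old libraries were themselves spread. Its pooled rate was 84.2-fold higher in old fat body, with a 95% exact counting interval from 32.7 to 310.0, and the call (adjusted p = 0.00339) held without library 3 (adjusted p = 0.0133) but was lost with limma-voom (adjusted p = 0.0691). These were 2 of the 7 factors, in a comparison where 38.1% of all genes were called.

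GATAe and lab stood outside their young ranges in old fat body, on opposite sides, without passing. GATAe measured 3.74, 2.97 and 4.48 CPM in old fat body, with no overlap with the young libraries (log2 change 0.86, SE 0.29, adjusted p = 0.0576), and it passed with DESeq2 (adjusted p = 0.0175) and without old library 2 (adjusted p = 0.0273). lab measured 0.238, 0.503 and 0.398 CPM, all below the young libraries, from 11 to 19 reads each (log2 change -1.32, SE 0.44, adjusted p = 0.0539), and passed without old library 2 (adjusted p = 0.0311). cad measured 5.81, 14.2 and 10.9 CPM, dve 4.47, 2.41 and 3.42 CPM, and Ptx1 3.05, 4.69 and 3.07 CPM, and each of these groups overlapped its young libraries. Their log2 changes were -0.14 for cad, 0.18 for dve and 0.15 for Ptx1, with adjusted p = 0.78, 0.605 and 0.733.

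Lam-RNAi fat body, compared with the same young controls, showed higher srp and byn and lower GATAe. srp measured 240 and 277 CPM, both above the young libraries, a rise of 1.09 on the log2 scale (SE 0.10, adjusted p = 0.000428). GATAe measured 0.343 and 0.614 CPM, from 16 and 42 reads, both below the young libraries, a fall by 1.82 on the log2 scale (SE 0.34, adjusted p = 0.0074). byn measured 3.58 and 2.47 CPM, from 167 and 169 reads, and its pooled rate was 65.5-fold that of young fat body, with a 95% exact counting interval from 25.4 to 242. The byn call (adjusted p = 0.00431) was lost with limma-voom (adjusted p = 0.0661). Ptx1 measured 1.48 and 0.862 CPM, both below the young libraries, and was called lower by 1.22 on the log2 scale (SE 0.37, adjusted p = 0.0435). That call was lost without any 1 of the 4 libraries compared (adjusted p from 0.0528 without Lam-RNAi library 1 to 0.22 without Lam-RNAi library 2). These were 4 of the 7 factors, where 35.7% of all genes were called. cad (12.05 and 9.07 CPM) overlapped the young libraries. dve (3.99 and 4.49 CPM) and lab (0.300 and 0.278 CPM) did not overlap them but did not pass (adjusted p = 0.0833 and 0.0607).

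Set directly against each other, old and Lam-RNAi fat body differed in 3 factors, where 14.7% of all genes were called. GATAe was higher in old fat body by 2.68 on the log2 scale (SE 0.33, adjusted p = 0.00445), and every old library lay above both Lam-RNAi libraries. Without old library 3 GATAe remained called (adjusted p = 0.0294). Ptx1 was higher in old fat body (log2 difference 1.37, adjusted p = 0.0462) and srp lower (log2 difference -0.38, adjusted p = 0.0342), and without old library 3 neither was called (adjusted p = 0.109 and 0.136). The same 2 calls were also lost without Lam-RNAi library 1 (adjusted p = 0.103 and 0.119) and without Lam-RNAi library 2 (adjusted p = 0.276 and 0.253). The srp ranges overlapped.

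Markers of other tissues also differed between these fat body libraries. Of 5 hindgut markers, 3 were higher in old and 3 in Lam-RNAi fat body, and their sum was 33.3 and 34.3 CPM in young, 53.6 to 78.3 CPM in old and 55.4 and 59.9 CPM in Lam-RNAi libraries. This sum did not single out gut tissue in young flies, at 18.6 and 21.8 CPM in whole gut and 24.9 and 27.0 CPM in midgut. In young whole gut against young midgut 0 of the 5 were called higher and 1 lower. The hindgut homeobox gene otp had no read in either young library and 0.843 to 3.31 CPM in old and 1.46 to 1.74 CPM in Lam-RNAi fat body. Its pooled rate was at least 64.3-fold higher in old and at least 47.1-fold higher in Lam-RNAi fat body, against a floor of 3 counts over both young libraries. Old library 1 had the lowest byn, otp and Abd-B of the old libraries and old library 2 the highest. This order was not particular to hindgut genes. The marker sums of ovary, muscle, oenocytes, hemocytes, Malpighian tubule, fat body and enteroendocrine cells had it too, and the midgut sum had the reverse. Library 3 stood between the others across genes, as given above.

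Ovary and midgut markers were also called. Of 5 ovary markers 4 could be tested, and 2 were higher in old and 3 in Lam-RNAi fat body, with sums of 59.95 and 60.66 CPM in young, 65.7 to 222 CPM in old and 160 and 181 CPM in Lam-RNAi libraries. The eggshell gene Vm26Aa was at 0 in both young libraries, and the eggshell gene Cp36 was at 0 in 6 of the 7 fat body libraries. Of 9 midgut markers 8 could be tested, and 6 were higher in old and 5 in Lam-RNAi fat body, with sums of 49.3 and 51.2 CPM in young, 171 to 375 CPM in old and 256 and 272 CPM in Lam-RNAi fat body. Npc2d was at 0 in 6 of the 7. Of 3 enteroendocrine markers tested 2 were higher in each.

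Fat body markers and those of muscle and oenocytes differed beside srp. Of 6 fat body markers 3 were higher in old and 2 in Lam-RNAi fat body and none lower. Their sums were 9111 and 8162 CPM in young, 14270 to 17540 CPM in old and 22290 and 21920 CPM in Lam-RNAi libraries. Most of the young sum was Rfabg, with a mean of 7806 CPM. In young fat body against young midgut 2 of the 6 were called higher and 1 lower. All 5 muscle markers were lower in old and 1 in Lam-RNAi fat body, with sums of 8092 and 8110 CPM in young, 2874 to 4888 CPM in old and 4694 and 4408 CPM in Lam-RNAi libraries. Of 3 oenocyte markers 2 were lower in each, and their sum was 92340 and 93510 CPM in young, 22760 to 35650 CPM in old and 32850 and 36060 CPM in Lam-RNAi libraries. Of 9 hemocyte markers 2 were lower in old and 2 higher in Lam-RNAi fat body, with sums of 1249 and 1196 CPM in young, 1200 to 1616 CPM in old and 1475 and 1764 CPM in Lam-RNAi libraries. The part of these tissues in the srp, byn, GATAe and Ptx1 changes was not tested. Relative to midgut of the same state, GATAe stood at 1.39% and 1.55% in young, 1.42% to 2.14% in old and 0.158% and 0.283% in Lam-RNAi libraries. The enterocyte gene mex1, 1 of 9 midgut markers, stood at 0.203% and 0.0801%, 1.03% to 4.26%, and 1.21% and 1.29%. Of the 8 tested, 6 were called higher in old and 5 in Lam-RNAi fat body, but not all shares rose. Jon99Cii stood at 0.0484% and 0.0394%, 0.00679% to 0.0113%, and 0.0314% and 0.0387%. CG7678 stood at 0.196% and 0.0158%, 0.0292% to 0.254%, and 0.0198% and 0.0135%.

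**Figure D3:**
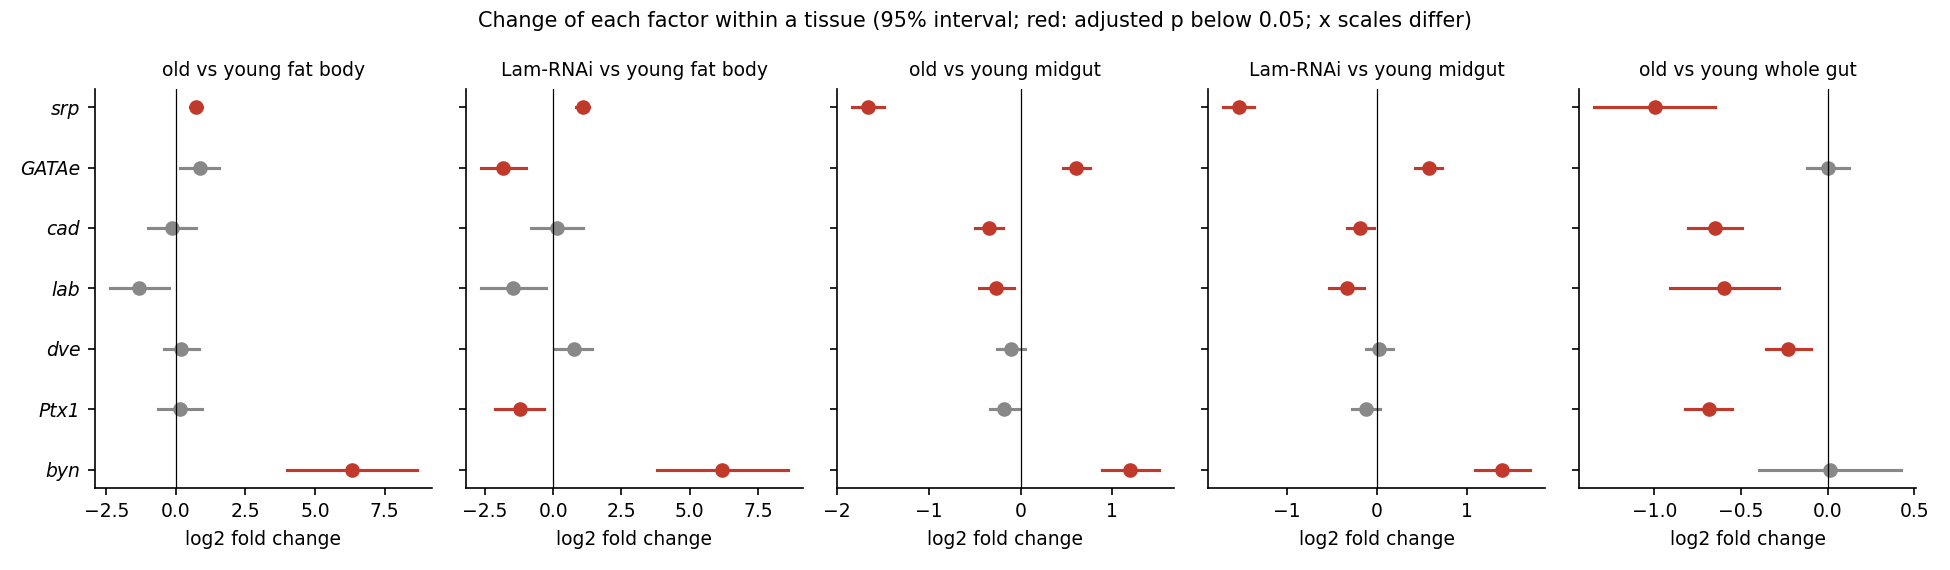
Log2 fold change of each factor within a tissue, with 95% intervals; red marks an adjusted p below 0.05, and the horizontal scales differ. srp lies right of 0 in both fat body panels (0.70 and 1.09) and left of 0 in the gut panels (-1.66, -1.54 and -0.999).

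In midgut the 2 GATA factors changed in opposite directions with age. srp measured 14.3 and 12.6 CPM in old midgut, below both young libraries, a fall by 1.66 on the log2 scale (SE 0.08, adjusted p = 4.2e-09). GATAe measured 215 and 203 CPM, above both young libraries, a rise of 0.61 (SE 0.07, adjusted p = 1.07e-05). byn measured 13.6 and 13.1 CPM, above both young libraries, a rise of 1.20 (SE 0.14, adjusted p = 3.18e-05). cad measured 54.0 and 50.7 CPM, below both young libraries, and fell by 0.34 (SE 0.07, adjusted p = 0.00122). In the edgeR fit of all 17 libraries the byn and cad calls were lost (adjusted p = 0.0778 and 0.39).

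Of the remaining region factors 1 was called in old midgut. lab measured 17.2 and 18.6 CPM, below both young libraries, and was called lower by 0.27 on the log2 scale (SE 0.09, adjusted p = 0.0234). That call was lost without old library 1 (log2 change -0.13) or young library 1 (log2 change -0.18), and with total counts alone as the scaling (adjusted p = 0.0918). It was also lost with upper quartile factors (adjusted p = 0.091), with DESeq2 (adjusted p = 0.0525) and in the fit of all 17 libraries (adjusted p = 0.3). Ptx1 measured 138 and 123 CPM (log2 change -0.18, 95% interval -0.33 to -0.02, adjusted p = 0.0532) and did not overlap the young libraries. dve measured 123 and 114 CPM and overlapped them (log2 change -0.10, 95% interval -0.25 to 0.05, adjusted p = 0.236). In all, 5 of the 7 were called, where 53.7% of all genes were called.

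Lam-RNAi midgut gave 5 calls against the same young controls, where 55.4% of all genes were called. srp measured 15.1 and 15.8 CPM (fall by 1.54, SE 0.08, adjusted p = 7.72e-09), GATAe 214 and 219 CPM (rise of 0.57, SE 0.07, adjusted p = 1.78e-05) and byn 14.7 and 17.8 CPM (rise of 1.39, SE 0.14, adjusted p = 7.78e-06). None of these 3 overlapped the young libraries. lab measured 17.6 and 18.9 CPM and fell by 0.34 (adjusted p = 0.00548), which was lost without Lam-RNAi library 1 (adjusted p = 0.0556), with total counts alone (adjusted p = 0.118) and in the fit of all 17 libraries (adjusted p = 0.227). cad measured 59.6 and 64.2 CPM, within the range of the young libraries, and its call (fall by 0.19, adjusted p = 0.0352) was lost without Lam-RNAi library 1 (adjusted p = 0.241), without young library 2 (adjusted p = 0.207) and with total counts alone (adjusted p = 0.71). Ptx1 measured 141 and 146 CPM and dve 135 and 140 CPM, and their log2 changes of -0.13 and 0.03 did not pass (adjusted p = 0.148 and 0.787). Lam itself was not called lower in these libraries, as given above.

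None of the 7 factors was called between old and Lam-RNAi midgut with edgeR, DESeq2 or limma-voom, where edgeR called 36% of all genes, and 1 of the 7 (cad) had an unadjusted p below 0.05. The 95% interval of the log2 difference, old minus Lam-RNAi, ran from -0.30 to 0.06 for srp, -0.11 to 0.19 for GATAe and -0.46 to 0.07 for byn. It ran from -0.31 to 0.00 for cad, -0.11 to 0.26 for lab, -0.28 to 0.02 for dve and -0.20 to 0.10 for Ptx1.

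Markers of other tissues were also higher in the young midgut libraries than in the old and Lam-RNAi ones. Of 9 hemocyte markers 8 could be tested, and 8 were lower in old and 7 in Lam-RNAi midgut, with sums of 319 and 382 CPM in young, 159 and 186 CPM in old and 245 and 268 CPM in Lam-RNAi midgut. He, a blood cell gene, was at 0 in 1 old and 1 Lam-RNAi library. Of 6 fat body markers, 5 were lower and 1 (the lipid droplet gene Lsd-1) higher in old midgut, and 5 were lower in Lam-RNAi midgut, with sums of 1044 and 1240 CPM in young, 534 and 537 CPM in old and 418 and 457 CPM in Lam-RNAi midgut. Of 3 oenocyte markers 2 were lower in both, with sums of 2117 and 2772 CPM in young, 45.6 and 49.4 CPM in old and 20.4 and 25.3 CPM in Lam-RNAi midgut. All 5 muscle markers were lower in both, with sums of 3779 and 4071 CPM in young, 1235 and 1390 CPM in old and 1908 and 2046 CPM in Lam-RNAi midgut. All 4 ovary markers tested were lower with age and 3 with Lam-RNAi, with sums of 7.58 and 7.95 CPM in young and at most 1.04 CPM in the others, and osk was at 0 in both old libraries.

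Their part in the fall of srp was not tested. As a share of the young fat body level, srp stood at 29.7% in young midgut. The 5 muscle markers stood at 38.0% to 57.8%, the 6 fat body markers at 8.98% (Rfabg) to 176% (bmm), the 9 hemocyte markers at 1.69% to 68.2%, the 3 oenocyte markers at 1.68% to 101% and 3 ovary markers at 7.71% to 25.6%.

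The decrease of srp from young to old midgut was 19.9% of its young fat body level. For the muscle markers the decrease was 24.1% to 41.4% of theirs and for the ovary markers 5.73% to 22%. Among the fat body markers it was 43.3% for Lsp2, 39.8% for Fbp2, 30.6% for bmm, 9.57% for Fbp1 and 7.55% for Rfabg, whereas Lsd-1 was higher in old midgut (-24.5%). It ran from -0.352% to 23.8% among the hemocyte markers (21.0% for Hml) and from -23.9% to 2.61% among the oenocyte markers.

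Beside GATAe and byn, other gut markers were called in midgut. Of 3 intestinal progenitor markers esg and Sox21a rose in both old and Lam-RNAi flies, with list sums of 19.1 and 20.9 CPM in young, 30.7 and 36.5 CPM in old and 31.6 and 36.4 CPM in Lam-RNAi midgut. Of 9 midgut markers 3 were higher and 4 lower in each. Of 5 hindgut markers 4 could be tested, with 1 higher and 1 lower in old and 2 higher and 1 lower in Lam-RNAi midgut. Among them otp was higher in old (log2 change 0.93) and Lam-RNAi midgut (1.18), where Dr was lower. Their part in the GATAe and byn changes was not tested.

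**Figure D4:**
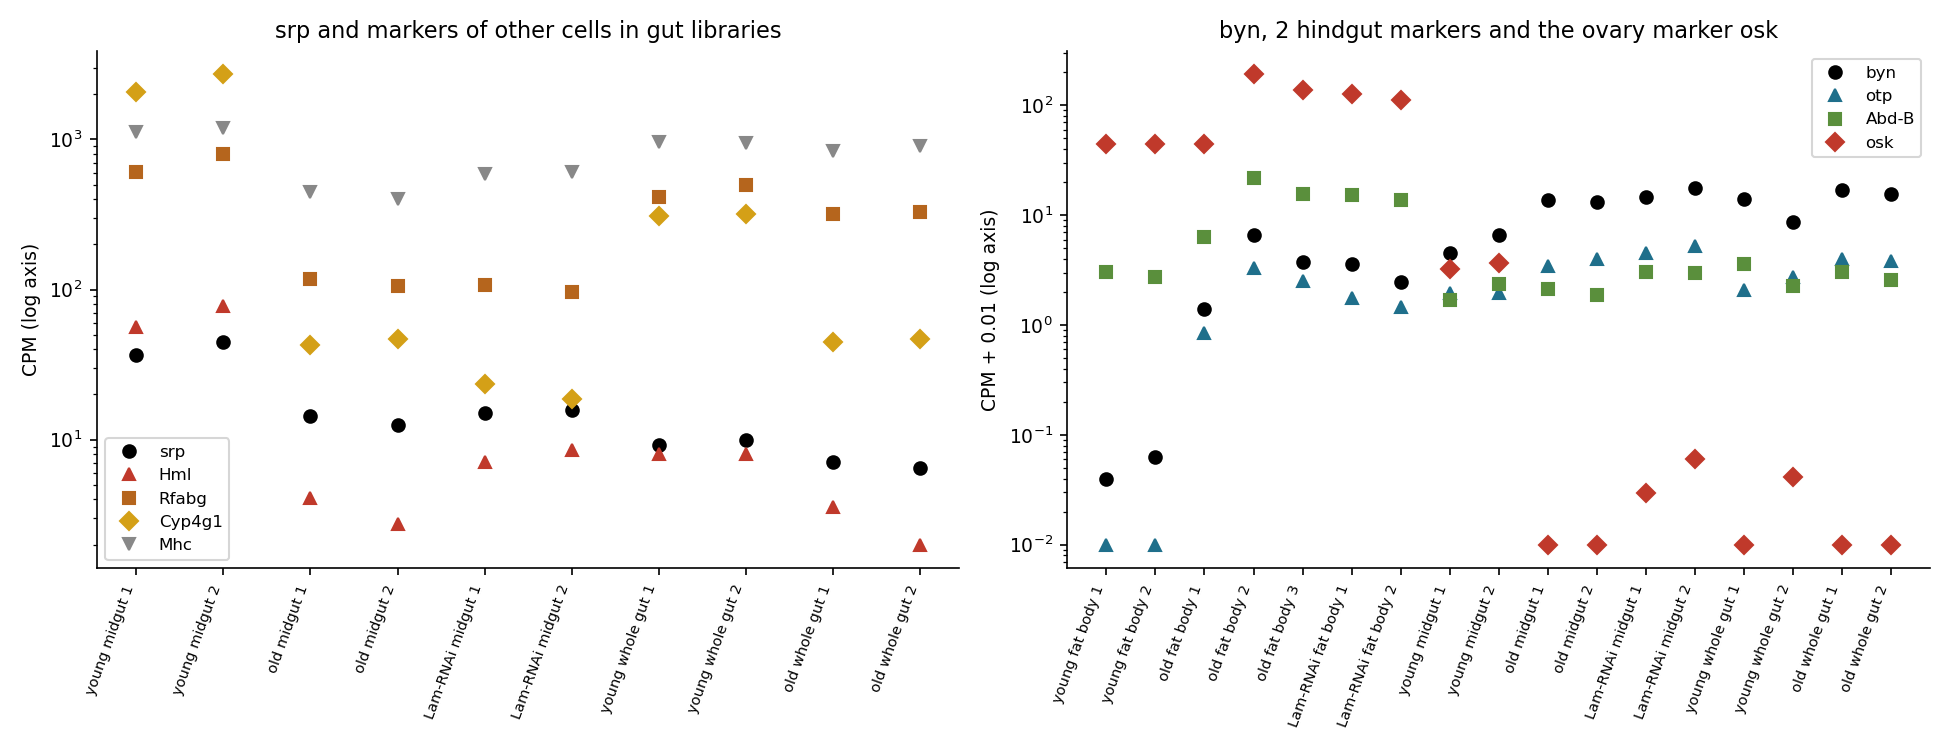
Left, srp with markers of hemocytes (Hml), fat body (Rfabg), oenocytes (Cyp4g1) and muscle (Mhc) in the gut libraries; right, byn with the hindgut markers otp and Abd-B and the ovary marker osk in all libraries, with 0.01 added. Both axes are logarithmic. In midgut all 5 genes at left are highest in the 2 young libraries. Each marker at left is 1 of its list, and some others of these lists went the other way. From young to old midgut the mean of the fat body marker Lsd-1 went from 68.1 to 168 CPM. That of the oenocyte marker desat2 went from 1.13 to 1.40 CPM. The counts for each list are in the text.

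In whole gut aged to 40 days, 5 of the 7 factors were called lower, where 43.6% of all genes were called and 23.4% were called lower. srp measured 7.05 and 6.52 CPM, below both young libraries, and fell by 0.999 on the log2 scale (SE 0.16, adjusted p = 0.000206). Ptx1 measured 125 and 126 CPM, below both young libraries, and fell by 0.69 (SE 0.06, adjusted p = 1.21e-06). cad measured 71.5 and 77.2 CPM, below both young libraries, and fell by 0.65 (SE 0.07, adjusted p = 6.96e-06).

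The fold changes here depended on the scaling. With total counts alone the median gene was higher by 0.52 on the log2 scale, and 87.9% of called genes were higher instead of 46.3%. On that scale srp (-0.50) and Ptx1 (-0.19) were still called lower, cad (-0.15) and lab (-0.10) were not called, and dve reversed to 0.27. Relative to the median gene, dve stood at -0.25 under both scalings. That equality follows from the arithmetic, since a change of scaling moves all genes by nearly the same amount. It cannot show whether dve fell. lab measured 14.4 and 16.3 CPM within the range of the young libraries, and dve 107 and 107 CPM above the young libraries, although the fit gave falls by 0.60 (adjusted p = 0.00444) and 0.23 (adjusted p = 0.00792). GATAe measured 158 and 151 CPM, above the young libraries, with a log2 change of 0.00 (adjusted p = 0.987), or 0.50 with total counts alone (adjusted p = 7.21e-06), and byn measured 16.9 and 15.6 CPM with a log2 change of 0.01 (adjusted p = 0.969), or 0.51 with total counts alone (adjusted p = 0.0304). The byn change was -0.30 without young library 2 and 0.41 without young library 1, both called. Of 9 midgut markers 8 were lower and 1 higher in old whole gut, with sums of 50950 and 54970 CPM in young and 33040 and 33560 CPM in old. Of 6 fat body markers 5 were lower, with sums of 865 and 980.3 CPM in young and 689 and 702 CPM in old, and of 6 hemocyte markers tested 4 were lower, with sums of 179.8 and 186 CPM in young and 178 and 165 CPM in old. Of 3 oenocyte markers 2 were lower, with sums of 319.9 and 326 CPM in young and 47.1 and 49.5 CPM in old. All 5 muscle markers were lower, with sums of 2920.0 and 2979 CPM in young and 2773 and 2862 CPM in old. Of 8 Malpighian tubule markers 6 were lower and 1 higher, and of 5 enteroendocrine markers 4 were lower. The part of these tissues in the changes of srp and the other factors was not tested.

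The effect of age differed between fat body and midgut for 3 of the 7 factors, where 44.3% of all genes were called in that interaction test. The difference, fat body effect minus midgut effect on the log2 scale, was 2.32 for srp (SE 0.12, adjusted p = 9.34e-09), 5.03 for byn (SE 1.18, adjusted p = 0.00462) and -1.07 for lab (SE 0.35, adjusted p = 0.0266). The size of the byn value rests on the 4 byn reads of young fat body and on the prior count of the fit. Without old fat body library 3 these stood at 2.32, 5.07 and -1.12 and stayed called. The lab call was lost without old fat body library 1 (-0.778, adjusted p = 0.0742). It was also lost without young fat body library 1 (-0.752), old midgut library 2 (-0.961) or young midgut library 2 (-0.997). Limma-voom (adjusted p = 0.102), DESeq2 size factors (0.05), the replicate block (0.0974) and a fit of only the compared groups (0.0887) lost it too. The byn call was lost with limma-voom (adjusted p = 0.0578).

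The Lam-RNAi effect differed between fat body and midgut for 6 of the 7, where 46.7% of all genes were called. The difference was 2.58 for srp (SE 0.12, adjusted p = 4.01e-09), -2.41 for GATAe (SE 0.26, adjusted p = 7.77e-06) and 4.71 for byn (SE 1.22, adjusted p = 0.00763). The byn value again rests on the 4 young fat body reads, and its call was lost with limma-voom (adjusted p = 0.0566). It was -1.16 for Ptx1 (adjusted p = 0.0103), -1.12 for lab (adjusted p = 0.029) and 0.67 for dve (adjusted p = 0.0316). Without young fat body library 1 or without Lam-RNAi fat body library 2, the calls for Ptx1, lab and dve were lost and 3 of the 7 remained. The lab call was also lost without Lam-RNAi fat body library 1, Lam-RNAi midgut library 2 or young midgut library 2. Limma-voom (adjusted p = 0.143), DESeq2 size factors (0.0643) and the replicate block (0.0833) lost it too. The dve call was also lost without either Lam-RNAi midgut library or young midgut library 1. With total counts alone (adjusted p = 0.201), upper quartile factors (0.0645) and the replicate block (0.0938) dve was not called either. The age effect also differed between whole gut and midgut for srp (0.67, SE 0.13, adjusted p = 0.00176) and GATAe (-0.59, SE 0.19, adjusted p = 0.0345), where 30% of all genes were called, with old ages of 40 and 50 days. The GATAe call was lost without any 1 of the 8 libraries compared (adjusted p from 0.0541 to 0.113).

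The number of srp reads for each GATAe read, which needs no scaling between libraries, separated the tissues in every state. It was 73.4 and 68.6 in young, 62.4, 81.0 and 52.7 in old, and 699 and 451 in Lam-RNAi fat body. It was 0.278 and 0.341 in young, 0.0664 and 0.0620 in old, and 0.0707 and 0.0720 in Lam-RNAi midgut. The young and old fat body ranges overlapped and both lay below the Lam-RNAi libraries, whereas in midgut the young libraries stood above the old and Lam-RNAi ones. In whole gut it was 0.0853 and 0.0910 in young and 0.0447 and 0.0433 in old flies.

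**Figure D5:**
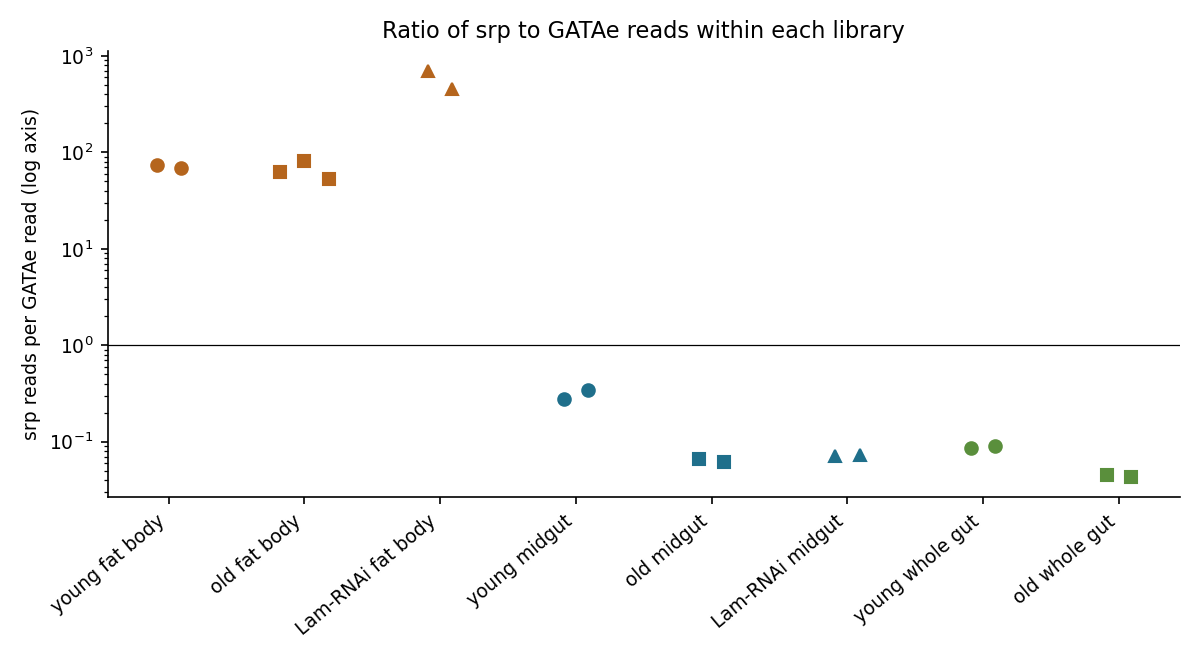
Reads of srp per read of GATAe in each library, on a log axis, with a line at 1. The fat body libraries lie between 52.7 and 699 and the gut libraries between 0.0433 and 0.341.

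Over all 8 groups the order of levels was clearest for the GATA factors. For srp it ran from Lam-RNAi fat body (mean 258 CPM) and old fat body (237 CPM), whose ranges overlapped, down to old whole gut (6.79 CPM), and no other neighbours overlapped. For GATAe it ran from Lam-RNAi midgut (mean 217 CPM) and old midgut (209 CPM), which overlapped, to Lam-RNAi fat body (0.478 CPM), again with no other neighbours overlapping. For cad the 3 fat body groups overlapped one another at means of 10.3 to 10.8 CPM, and the highest mean was that of young whole gut (82.7 CPM). For Ptx1 the means of Lam-RNAi midgut, young whole gut and young midgut, between 141 and 143 CPM, overlapped. For byn old whole gut had the highest mean (16.3 CPM) and overlapped Lam-RNAi midgut.

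The genes whose log2 levels ran closest to each factor over the 17 libraries, among 4304 candidates, are given with Pearson's r as a description, since the points share tissues and controls. They were IM14 (0.993), zfh1 (0.986) and sns (0.986) for srp, and GstE5 (0.991), decay (0.990) and Tsp42Er (0.988) for GATAe. For cad they were SdhA (0.995), Vha100-2 (0.993) and porin (0.990), for lab Tsp42Eq (0.995), RhoL (0.994) and Dat (0.992), and for dve kermit (0.999), Pld (0.996) and pgant2 (0.996). For Ptx1 they were hebe (0.994), RhoL (0.992) and Tsp42Eq (0.992), and for byn Cyp49a1 (0.981), otp (0.979) and CAH2 (0.962). Among the members themselves the same measure was highest for lab and Ptx1 (0.987) and for GATAe and Ptx1 (0.986), and srp had a negative value with each of the other 6, from -0.91 to -0.67.

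Of the other GATA genes, GATAd measured 28.9 CPM ± 0.126 in young fat body and 22.5 CPM ± 0.999 in young midgut (SD, n = 2 each) and passed in none of the 5 comparisons of age or RNAi within a tissue. pnr (pannier) rose in Lam-RNAi fat body by 1.25 on the log2 scale (adjusted p = 0.0027), from 10.3 CPM ± 0.308 to 21.9 CPM ± 6.00 (SD, n = 2 each). In midgut pnr fell with age from 2.85 CPM ± 0.465 to 0.170 CPM ± 0.113 (SD, n = 2 each; adjusted p = 2.3e-05), and in Lam-RNAi midgut to 0.222 CPM ± 0.203 (adjusted p = 2.89e-05). grn (grain) measured at most 0.726 CPM as a group mean, was not called in old or Lam-RNAi fat body (adjusted p = 0.206 and 0.182) and did not pass the count filter in the gut fits. ush, the cofactor of GATA factors, fell in old fat body by 0.35 (adjusted p = 0.0225) and rose in Lam-RNAi midgut by 0.55 (adjusted p = 0.00082).

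Genes of the endoderm and of the copper and iron regions, 10 in the list, fell in midgut more often than they rose. In old midgut 7 fell and 1 rose, with a median log2 change of -0.59 against 0.01 for all genes, and in Lam-RNAi midgut 8 fell and 1 rose, with a median of -1.03 against -0.01. Over all genes 53.7% and 55.4% were called in these comparisons. The metal-binding metallothionein gene MtnB fell by 1.97 in old and 2.42 in Lam-RNAi midgut, MtnC by 1.05 and 1.31, and the ferritin subunit genes Fer1HCH by 1.34 and 1.88 and Fer2LCH by 1.60 and 2.12. In old whole gut 7 fell and 1 rose, with MtnB falling by 2.08 and MtnC by 2.15. In fat body, where 38.1% and 35.7% of all genes were called with age and Lam-RNAi, the list went the other way, with 7 rising and none falling in old (median 1.37 against 0.02) and 5 rising and 1, MtnC, falling in Lam-RNAi fat body (median 0.50 against -0.01). There the integrin subunit gene betaInt-nu rose by 1.52 and 0.82 and the metal transporter gene Mvl by 1.22 and 1.46. The list shares mex1 and the region marker CG7678 with the midgut markers.

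Of 22 other gut patterning factors, 21 could be tested in fat body and 18 in midgut. In old fat body 5 rose and 6 fell, where 38.1% of all genes were called, and in Lam-RNAi fat body 6 rose and 3 fell, where 35.7% were. The Hox cofactor hth fell in both (by 1.21 and 0.82), and the forkhead factor fkh rose in old fat body by 0.70. In old midgut, where 53.7% of all genes were called, 5 rose and 6 fell, among them the Hox genes abd-A (fall by 1.75) and Antp (fall by 1.31), the zinc finger gene odd (rise of 0.93) and bowl (rise of 0.54). In Lam-RNAi midgut, where 55.4% were called, 8 rose and 7 fell, with abd-A falling by 1.42 and fkh rising by 0.54. In old whole gut, where 43.6% were called, none of 18 rose and 7 fell, hth by 0.86, odd by 0.80 and bowl by 0.66 among them.

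Of 9 gut cell state factors, 3 rose and 2 fell in old midgut and 4 rose and 1 fell in Lam-RNAi midgut, a share near the 53.7% and 55.4% of all genes called there. The progenitor factor esg rose by 0.97 and 0.87, Sox21a by 1.13 and 1.11, and the Myc gene dm by 1.09 and 1.83. In old whole gut Sox21a rose by 2.40 and esg fell by 0.73.

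Of the fat body and metabolic factors 14 of 15 matched. In old fat body 3 rose and 7 fell, and in Lam-RNAi fat body 4 rose and 5 fell, where 38.1% and 35.7% of all genes were called. The NF-kappaB factor Rel rose by 1.94 and 1.35, and the nuclear receptors ERR (fall by 0.99 and 0.95) and Hnf4 (fall by 0.94 and 0.69) fell in both. In midgut the nuclear receptor svp fell by 1.90 with age and by 1.37 with Lam-RNAi, and sug rose by 1.57 and 1.27. svp measured 121 CPM ± 2.89 in young fat body against 7.68 CPM ± 1.59 in young midgut (SD, n = 2 each).

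Fat body product genes, 13 in the list, rose in 4 cases in old and in 6 cases in Lam-RNAi fat body, and none fell, where 38.1% and 35.7% of all genes were called in either direction. The yolk protein gene Yp1 rose by 0.44 and 1.88 and the lipoprotein gene Rfabg by 0.86 and 1.58. In midgut, where 53.7% and 55.4% of all genes were called, 11 of the 13 fell and 2 rose with age. With Lam-RNAi 11 fell and 1 rose. Rfabg fell by 2.71 and 2.93, and the list medians were -2.43 and -2.42. The list holds all 6 fat body markers given above for midgut.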

How the data were processed

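RNA was isolated from dissected adult fly tissues and poly-A selected, and libraries were made with the Illumina TruSeq kit, per the labels' protocols. The authors deposited, for each of the 17 libraries, a table of whole-number read counts per gene; the submitters' processing notes name CASAVA 1.8, TopHat2 and edgeR, and the counting tool, its strand setting and the genome build are not given in the sources used here. Of 15080 entries, those at the same position with equal counts were merged, which left 14095 loci, and 29 positions kept unequal counts. No column of per-sample values was left out.

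The members and the gene lists were chosen with earlier results of these data known. Of 133 list genes, 3 were unmatched, 9 matched by synonym and 1 by letter case. Named list genes are, for each list and comparison, up to 4 with the smallest p among those past the threshold, and for each member the 3 genes with the highest Pearson r to it over the 17 libraries. Other list genes or markers named were chosen after their values were seen.

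Counts were tested with the quasi-likelihood F test of edgeR 4.0.16 (R 4.3.3) over all genes passing its filter on low counts, with trimmed mean scaling and Benjamini-Hochberg adjustment at 0.05. Separate fits were made for fat body (10866 genes, 4 residual degrees of freedom), midgut (10220 genes, 3) and whole gut (9773 genes, 2), and 1 fit of all 17 libraries (11128 genes, 9) for comparisons between tissues. All 7 members passed the filter in each fit. Fold changes come from the fit and CPM from total counts, so their ratios can differ. Likeness used log2 CPM with a prior count of 2. The series text calls the libraries biological replicates, but no label ties them to separate flies, so p-values measure the spread between these libraries, which may be technical. The scripts were tested on simulated data. DESeq2 1.42.0, limma 3.58.1, other scalings and filters, the replicate block and leaving out each library were alternatives.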

Additional observations from a re-analysis of the deposited data

Results flagged for a closer look

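In each of the following cases a test of the difference between 2 tissues in the effect of age or Lam-RNAi passed for a member (edgeR, adjusted p below 0.05). All values are log2 differences of the effects. The age effect in fat body minus that in midgut was 2.315 for srp, 5.029 for byn and -1.065 for lab. For srp all 3 old fat body libraries lay above both young ones and both old midgut libraries below both young ones, and byn was higher with age in both tissues.

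The Lam-RNAi effect in fat body minus that in midgut was 2.578 for srp, -2.41 for GATAe, 4.706 for byn, -1.16 for Ptx1, -1.118 for lab and 0.67 for dve. GATAe was lower in both Lam-RNAi fat body libraries and higher in both Lam-RNAi midgut libraries than in every young library of the same tissue.

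The age effect in whole gut minus that in midgut was 0.67 for srp and -0.594 for GATAe, with old ages of 40 and 50 days.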

How the results depend on the processing

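Over 1530 alternative values of the members, 1401 kept their side of the threshold, 90 lost the call, 37 gained one and 2 reversed. A reversal here is a change of sign with a call in at least 1 of the 2 settings. The 1401 include values that changed sign without a call in either setting. For example, the lab age effect in whole gut minus midgut went from -0.307 to 0.121 with total counts alone. The reversals were in old against young whole gut: dve at 0.269 with total counts alone, and byn at -0.304 without young whole gut replicate 2 (0.415 without replicate 1). Of 219 alternative counts of called members, 185 stayed within 1.5 times the main count. The srp changes with age and with Lam-RNAi in fat body and midgut, the midgut GATAe rises and the GATAe fall in Lam-RNAi fat body were called under every alternative run.

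With all 17 libraries in 1 fit, the count was 4 instead of 2 for old against young fat body, 2 instead of 5 for old and 3 instead of 5 for Lam-RNAi against young midgut, and 3 instead of 5 for old against young whole gut. Over all genes 5502, 3731, 3992 and 3787 of 11128 were called there, in that order. The main fits called 4141 of 10866, 5487 and 5661 of 10220, and 4257 of 9773. With total counts alone the count was 3 instead of 5 for Lam-RNAi against young midgut, 1 instead of 2 for the age effect in whole gut minus midgut, and 2 instead of 1 for young whole gut against midgut. Over all genes 5654 of 10220, 4709 of 11128 and 5530 of 11128 were called there, in that order. At an adjusted p below 0.01 the count was 1 instead of 2 for the age effect in whole gut minus midgut, 3 instead of 6 for the Lam-RNAi effect in fat body minus midgut, and 1 instead of 3 for old against Lam-RNAi fat body. The genes called there were 2079 of 11128, 3826 of 11128 and 503 of 10866, in that order. Limma-voom gave 1 instead of 3 for the age effect in fat body minus midgut and 4 for young whole gut against midgut, where DESeq2 and a filter of 1 CPM in 2 libraries gave 2. Of 11128 genes limma-voom called 4721 and 4232 in these comparisons. In young whole gut against midgut DESeq2 called 5000 of 11128 and the filter gave 4567 of 10059. With the compared groups alone in the fit, the age effect in whole gut minus midgut gave 5 and young whole gut against midgut 4. These fits called 4427 of 10234 and 4642 of 9885 genes. Without old fat body replicates 1 and 3 together, 1 old library remained. The difference of old against Lam-RNAi fat body then moved from -0.564 to -1.031 for dve and from 0.131 to 0.586 for lab. The cause was not tested in any of these.

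Leaving out 1 library at a time gave 1 call in each case for the age effect in whole gut minus midgut, and 3 to 6 for the Lam-RNAi effect in fat body minus midgut. It gave 3 to 5 for Lam-RNAi against young midgut, 1 to 4 for old against Lam-RNAi fat body and 2 to 4 for old against young fat body.

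The labels give replicate numbers, but same-numbered libraries did not deviate together (correlations from -0.12 to 0.014), which gave no sign of pairing. With 2 libraries in most groups their deviations mirror each other, so these correlations cannot exclude pairing. A fit with the replicate block gave 0 calls for old against Lam-RNAi fat body, where it called 66 of 10866 genes. It gave 1 for the age effect in whole gut minus midgut (2514 of 11128 genes) and 2 for old against young fat body (1707 of 10866 genes). Crossing the midgut numbers, chosen after seeing the data, gave 5, 5 and 0 calls for the midgut comparisons (old and Lam-RNAi against young, old against Lam-RNAi). Over all genes 5558, 5771 and 3784 of 10220 were called there.

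Scaling to total counts alone moved the median gene by over 0.1 on the log2 scale in most comparisons, to 0.52 in whole gut with age, -0.18 and 0.27 in Lam-RNAi against young and old against Lam-RNAi fat body, 0.14 in Lam-RNAi against young midgut, and 0.48, 0.49 and -0.32 in young fat body, old fat body and young whole gut against midgut. Higher calls were then 87.9% of calls in whole gut with age (main 46.3%), 34.9% and 81.7% in those fat body comparisons (52% and 38.3%), and in midgut 61.4% for Lam-RNAi against young flies (46%) and 27.8% for old against Lam-RNAi flies (47.4%). Against midgut they were 68.1% and 70.3% for young and old fat body (49.5% and 47.1%) and 22.1% for young whole gut (45.8%). For the Lam-RNAi effect in fat body minus midgut they were 35% (51.7%), and for the age effect in whole gut minus midgut 88.7% (58.5%). Upper quartile factors gave 60.9% in whole gut with age, 58.1% in Lam-RNAi against young midgut, and 64.7%, 60.3% and 55.3% for young, old and Lam-RNAi fat body against midgut (Lam-RNAi main 43.8%). DESeq2 size factors gave 64.5% and 64% for the age and Lam-RNAi effects in fat body minus midgut (53.8% and 51.7%). Depth limits byn and lab most in fat body, where byn had 1 and 3 reads in young and lab 11 to 39 in all libraries.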
